A study of Rattus norvegicus with 16 samples.

Results

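The cytosolic DNA sensing and cGAMP genes are 10 genes of the rat count table, taken by symbol from the 32623 genes listed. All 10 were found: Cgas, Tmem173, Tbk1, Ikbke, Irf3, Trex1, Samhd1, Enpp1, Dnase2 and Zbp1. Tmem173 is the older symbol of Sting1. The RNA came from kidney cortex of rats in 4 groups of 4 libraries each, young females and males and old females and males. Age is labelled only young or old, the treatment label is none, and every library carries the genotype "Homo", which is not explained. Diabetic kidney disease stands in the series title but in no library's labels. Nothing in the labels ties each library to its own animal, so a p-value here speaks of the spread between libraries, which may be partly technical.

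DNA in the cytosol, from a virus, a damaged nucleus or mitochondria, is bound by the enzyme cGAS, which then makes the small messenger cGAMP. cGAMP binds the membrane protein STING, which moves from the endoplasmic reticulum to the Golgi and recruits the kinases TBK1 and IKK-epsilon, and these switch on the transcription factor IRF3 and interferon genes. Nucleases remove the DNA before it is sensed, and ENPP1 cleaves cGAMP outside the cell. Many of these genes are expressed both in tissue cells and in leukocytes, so each was set beside Cd68, a lysosomal glycoprotein of macrophages, and Csf1r, the receptor for the macrophage growth factor CSF1. In RNA from whole tissue, fewer cells of a type and less RNA per cell cannot be told apart.

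Total counts, in units of 1e+06, were lowest in old male replicate 4 at 10.83 and highest in old male replicate 2 at 35.96. Genes of chromosome Y went against no sex label: Eif2s3y and Kdm5d had 0 counts in all females. Library identifiers begin with DS or OP, 2 prefixes that the labels leave unexplained. All young libraries carry DS, and OP marks replicates 1 and 2 of the old females and replicates 1, 2 and 3 of the old males. A fit on DS libraries alone therefore holds 1 old male and 2 old females, the lone old male is assumed to vary like the other groups, and its values are given without a p. Counts of settings that kept or lost a call do include that fit. The 8 proximal tubule genes examined, which mark the main tubule of the cortex, were summed in CPM (counts on a common library scale, set with TMM factors). The sum was lowest in old males, at 6051 to 6572 CPM, with no overlap with the other groups. It was 8469 to 10454.5 CPM in young females, 10633 to 11632 CPM in young males and 9296 to 11092 CPM in old females. The 8 genes did not move together. In old against young males 5 were lower and 2 higher at the threshold given below, against 24.6% and 25.3% of all genes. Their log2 fold changes ran from -1.05 to 2.62. Inner medulla genes, which mark tissue below the cortex, were detected too, and their mean log2 CPM was highest in young females, at 5.12 to 6.10. Young males were at 2.56 to 4.03, old females at 2.71 to 4.87 and old males at 2.21 to 3.13. A gene passed a comparison at an adjusted p under 0.05 in edgeR's quasi-likelihood test, over 14390 genes in 16 libraries.

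Promoters of 5 of the 10 genes are in the RefSeq table for rat build GRCr8, which gives 250 bases before and 50 after each gene's start. Those of Tmem173 (chr18:27612399-27612698, minus strand), Samhd1 (chr3:166214361-166214660, minus strand), Irf3 (chr1:104616358-104616657, plus strand) and Tbk1 (chr7:58996308-58996607, minus strand) are shown, since the first 3 genes passed in old males and Tbk1 did not. Capitals mark the only matches of the motifs searched.
Tmem173: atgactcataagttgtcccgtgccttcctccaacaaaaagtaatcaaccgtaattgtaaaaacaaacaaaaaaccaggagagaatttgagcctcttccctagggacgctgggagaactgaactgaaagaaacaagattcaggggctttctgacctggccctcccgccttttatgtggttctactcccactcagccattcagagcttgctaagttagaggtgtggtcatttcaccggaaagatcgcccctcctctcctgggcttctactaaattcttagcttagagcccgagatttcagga
Samhd1: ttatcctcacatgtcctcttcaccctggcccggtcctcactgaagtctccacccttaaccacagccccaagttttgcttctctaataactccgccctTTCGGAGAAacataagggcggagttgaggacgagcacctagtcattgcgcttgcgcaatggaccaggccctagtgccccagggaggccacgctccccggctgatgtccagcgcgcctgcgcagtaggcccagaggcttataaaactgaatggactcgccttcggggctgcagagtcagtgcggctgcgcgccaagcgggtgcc
Irf3: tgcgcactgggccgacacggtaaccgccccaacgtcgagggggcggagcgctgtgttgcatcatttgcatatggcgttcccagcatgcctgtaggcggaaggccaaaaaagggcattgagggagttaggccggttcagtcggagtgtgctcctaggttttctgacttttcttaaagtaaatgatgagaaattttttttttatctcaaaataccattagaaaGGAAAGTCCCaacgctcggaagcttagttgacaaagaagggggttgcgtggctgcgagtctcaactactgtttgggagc
Tbk1: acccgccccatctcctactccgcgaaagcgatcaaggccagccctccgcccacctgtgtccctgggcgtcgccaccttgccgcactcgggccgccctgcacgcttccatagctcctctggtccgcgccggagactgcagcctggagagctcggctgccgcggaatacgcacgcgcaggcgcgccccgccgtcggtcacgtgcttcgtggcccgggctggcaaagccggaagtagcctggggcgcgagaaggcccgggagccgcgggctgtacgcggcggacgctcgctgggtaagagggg
The motifs searched, on both strands, were the core of the interferon-stimulated response element (a pair of GAAA blocks 2 bases apart), the gamma-activated sequence (TTCNNNGAA) and the consensus of NF-kappaB. The first was in 0 of the 5 promoters and in 3.92% of 33469 rat promoters of the same length. The second was in the Samhd1 promoter alone of the 5, 153 bases before the gene's start, and in 8.87% of all promoters. The third was in the Irf3 promoter alone of the 5, 29 bases before the start, and in 7.51% of all promoters. GC content was 46.7% for Tmem173, 60.0% for Samhd1, 50.3% for Irf3 and 72.3% for Tbk1, against a median of 51.7%. These matches are a description of letters and were not tested against the expression values.

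Old males carried more mRNA of 7 of the 10 genes than young males, less of Enpp1, and Tbk1 and Trex1 did not pass. Of all genes tested, 25.3% were higher and 24.6% were lower in this comparison. Among the 7, Tmem173, Zbp1, Ikbke, Dnase2, Samhd1 and Cgas were at least 2-fold higher, against 10.6% of all genes. The libraries of old and young males did not overlap for 7 genes in the higher direction and 1 in the lower, against 23.7% and 22.6% of all genes. The median log2 fold change was 1.04 over the 10 genes and -0.0028 over all genes tested. Cd68 and Csf1r were higher as well, by 1.69 and 1.26 on the log2 scale.

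**Figure D1:**
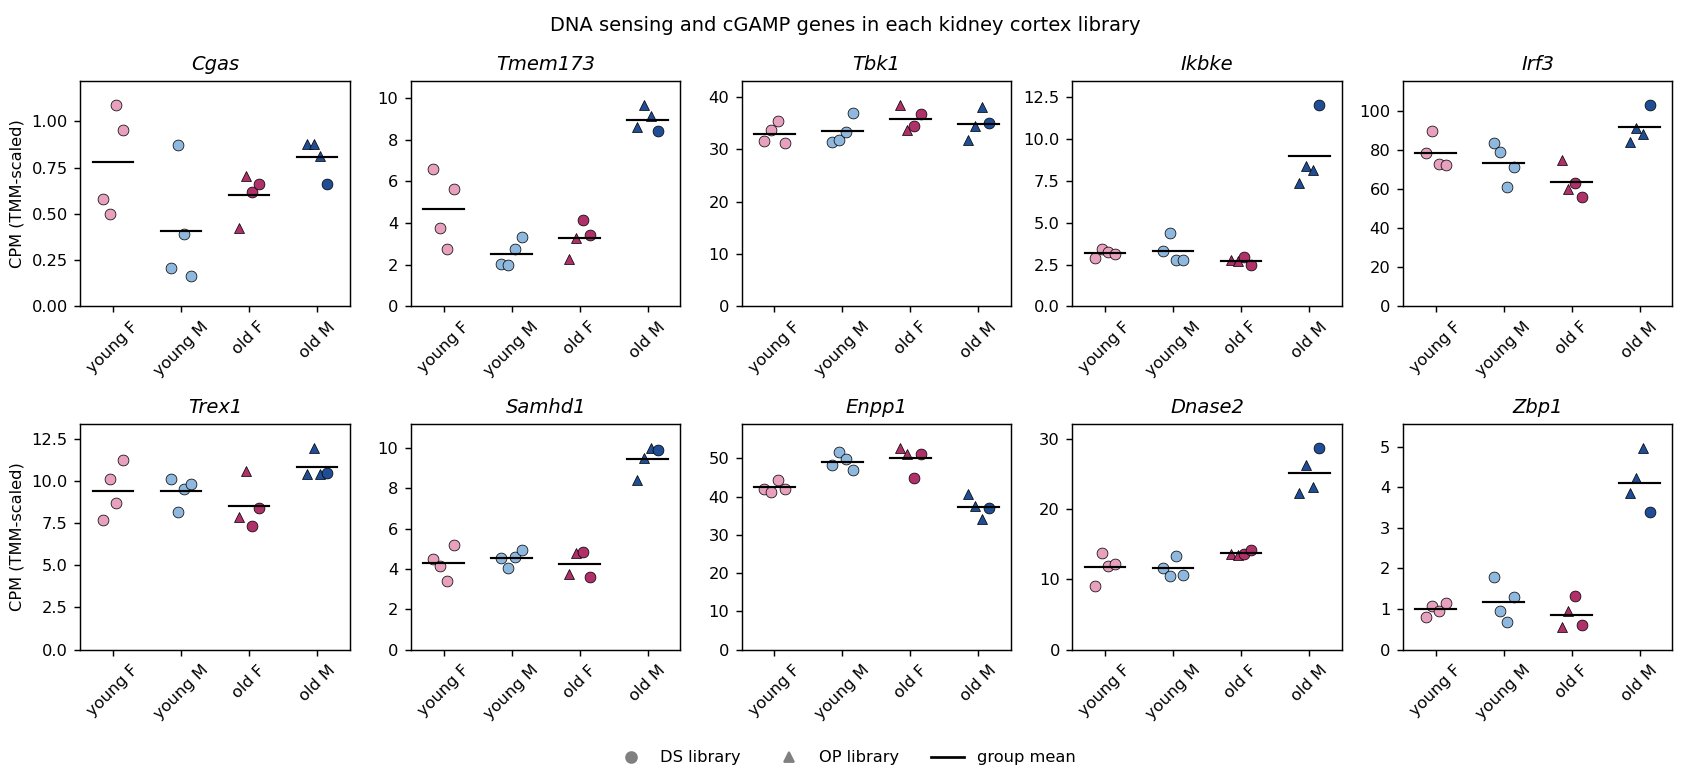
Level of each of the 10 genes (y axis, TMM-scaled CPM on a linear scale starting at 0) in each library of the 4 groups (x axis), with circles for DS, triangles for OP and a line at the mean of 4. Old males sit apart for Tmem173, Ikbke, Samhd1, Dnase2 and Zbp1, while Tbk1 stays between 31.1 and 38.4 CPM in all 16 libraries.

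Cgas (ENSRNOG00000046191, chromosome 8), the DNA sensor that makes cGAMP, was the scarcest of the 10 by counts, with 2 to 36 counts in each library. It was at 0.578, 0.500, 1.09 and 0.953 CPM in young females, 0.206, 0.874, 0.393 and 0.162 in young males, 0.424, 0.705, 0.621 and 0.664 in old females, and 0.877, 0.878, 0.815 and 0.659 in old males. Old males overlapped young males through young male replicate 2, and they overlapped both female groups. The mean was 0.807 ± 0.103 CPM in old males against 0.409 ± 0.326 CPM in young males (SD, n = 4), a log2 fold change of 1.01 (SE 0.385, adjusted p = 0.0377). The 2 lowest libraries held 2 and 3 counts, with exact 95% Poisson intervals of 0.242 to 7.22 and 0.619 to 8.77 counts, which cover counting error only. The call was kept in 15 of 28 other settings. It was lost when any of young male replicates 1, 3 and 4 or old male replicates 1, 2 and 3 was left out (log2 0.79, 0.996, 0.78, 0.98, 0.97 and 1.02), and without young male replicate 2 the value was 1.60. With the prefix as a covariate it was 0.96 (adjusted p = 0.167), and in DS libraries alone, where the old males are 1 library, 0.69.

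Cgas shares its place in the RefSeq annotation with Ddx43 and the pseudogene Trappc14l1. No source used here says whether reads were counted by strand. The counts of Cgas are uncertain in that respect. The same holds for Irf3, which overlaps Bcl2l12, and for Ikbke, which overlaps a long noncoding RNA. The other members overlap no listed gene. This annotation is of build GRCr8, while the submitters name Rnor_6.0, so overlaps in the counting itself may differ.

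Tmem173 (ENSRNOG00000042137, chromosome 18), which encodes the cGAMP receptor STING, had the largest fold of the 10 in males, with Zbp1 next and almost equal. It was at 6.58, 3.75, 2.76 and 5.65 CPM in young females, 2.06, 1.99, 2.75 and 3.33 in young males, 2.26, 3.27, 4.14 and 3.44 in old females, and 8.62, 9.66, 9.13 and 8.40 in old males. All old males lay above all 12 other libraries, and young females spread the widest. The difference between old and young males was 3.55-fold (log2 1.83, SE 0.236, adjusted p = 8.84e-06), and it was 1.96 with the prefix as a covariate and 1.72 in DS libraries alone.

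The kinases that STING recruits parted. Tbk1 (ENSRNOG00000005528, chromosome 7), the main kinase of IRF3, was at 31.5, 33.7, 35.3 and 31.1 CPM in young females, 31.4, 31.8, 33.3 and 36.9 in young males, 38.4, 33.6, 34.3 and 36.6 in old females, and 31.8, 34.3, 38.1 and 35.0 in old males. All 4 groups overlapped, and the log2 difference between old and young males was 0.06, with a 95% interval of -0.090 to 0.22 (adjusted p = 0.495). Ikbke (ENSRNOG00000025100, chromosome 13), which encodes the related kinase IKK-epsilon, was at 2.89, 3.42, 3.26 and 3.13 CPM in young females, 3.30, 4.37, 2.75 and 2.76 in young males, 2.76, 2.69, 2.97 and 2.48 in old females, and 7.36, 8.39, 8.15 and 12.0 in old males. Each old male was above every other library, and the difference from young males was 2.71-fold (log2 1.44, SE 0.168, adjusted p = 3.16e-06).

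Irf3 (ENSRNOG00000043388, chromosome 1), the transcription factor that TBK1 phosphorylates, was at 78.5, 89.9, 72.9 and 72.3 CPM in young females, 83.6, 78.9, 60.9 and 71.2 in young males, 74.9, 60.0, 63.2 and 55.9 in old females, and 84.1, 91.4, 88.4 and 103 in old males. Old males did not overlap young males but did overlap young females. The difference from young males was 1.24-fold (log2 0.32, SE 0.107, adjusted p = 0.0213). Its call was lost without young male replicate 3 (0.23, adjusted p = 0.0836), without old male replicate 4 (0.26, adjusted p = 0.0642) and with the prefix as a covariate (0.32, adjusted p = 0.0755). It was lost too with the inner medulla mean as a covariate (0.28, adjusted p = 0.0559) and at a threshold of 0.01. DS libraries alone, with 1 old male, gave 0.48.

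Genes for enzymes that remove DNA or its building blocks differed among themselves. Trex1 (ENSRNOG00000022540, chromosome 8), the main exonuclease of cytosolic DNA, was at 7.66, 10.1, 8.70 and 11.2 CPM in young females, 10.1, 8.18, 9.54 and 9.82 in young males, 7.84, 10.6, 7.31 and 8.40 in old females, and 10.4, 11.9, 10.4 and 10.5 in old males. Old males lay just above young males without overlap, but the log2 difference of 0.20 did not pass (95% interval -0.069 to 0.47, adjusted p = 0.204). Samhd1 (ENSRNOG00000006418, chromosome 3), which breaks down deoxynucleotides, was at 4.48, 4.17, 3.41 and 5.17 CPM in young females, 4.54, 4.05, 4.60 and 4.95 in young males, 3.74, 4.80, 4.83 and 3.62 in old females, and 8.43, 9.51, 9.98 and 9.89 in old males. Old males were above all others, at 2.08 times the young male level (log2 1.06, SE 0.133, adjusted p = 6.71e-06). Dnase2 (ENSRNOG00000023830, chromosome 19), the DNase of lysosomes, was at 9.11, 13.8, 11.9 and 12.3 CPM in young females, 11.7, 10.6, 13.4 and 10.6 in young males, 13.6, 13.5, 13.6 and 14.1 in old females, and 22.3, 26.4, 23.2 and 28.7 in old males. It was 2.16-fold higher in old than in young males (log2 1.11, SE 0.116, adjusted p = 9.99e-07), again with no old male inside the range of the other groups.

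Zbp1 (ENSRNOG00000006314, chromosome 3), a sensor of left-handed Z-form nucleic acids that can start necroptosis, was at 0.795, 1.08, 0.943 and 1.16 CPM in young females, 1.79, 0.953, 0.673 and 1.30 in young males, 0.565, 0.961, 1.31 and 0.604 in old females, and 3.85, 4.22, 4.96 and 3.38 in old males. It was 3.54-fold higher in old than in young males (log2 1.82, SE 0.268, adjusted p = 3.21e-05), and every old male was above every other library.

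Enpp1 (ENSRNOG00000013994, chromosome 1), the hydrolase of cGAMP outside the cell, was the only member to fall in old males. It was at 42.1, 41.3, 44.3 and 41.9 CPM in young females, 48.1, 51.7, 49.8 and 46.8 in young males, 52.6, 51.1, 44.9 and 51.2 in old females, and 40.6, 37.5, 34.2 and 37.0 in old males. All old males lay below all other libraries, and the log2 fold change from young males was -0.40 (SE 0.0633, adjusted p = 7.19e-05). This call rests on the scaling. With library totals alone, which move the median of all genes by 0.32 on the log2 scale in old against young males, Enpp1 was at -0.07 (adjusted p = 0.272). Tbk1 and Trex1 then passed at 0.39 and 0.53, and Irf3 was at 0.64. In that setting 9 members were higher and 0 lower, when 7837 of all 14390 genes were higher and 1332 lower.

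Levels between genes were compared per length, in the authors' RPKM (reads scaled by gene length and library total). In old males Irf3 was highest at 71.3 ± 6.76 RPKM, then Dnase2 at 19.8 ± 2.47, Tbk1 at 13.1 ± 1.18, Trex1 at 11.9 ± 0.969 and Enpp1 at 10.2 ± 0.557 (SD, n = 4). Tmem173 followed at 4.93 ± 0.385, Samhd1 at 3.62 ± 0.332, Ikbke at 3.12 ± 0.728, Zbp1 at 1.74 ± 0.304 and Cgas at 0.591 ± 0.0755. Tbk1 and Trex1, and Samhd1 and Ikbke, are neighbours whose means differ by less than the sum of their SDs. In young males Dnase2 ranked 5 at 7.27 ± 0.837 RPKM.

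**Figure D2:**
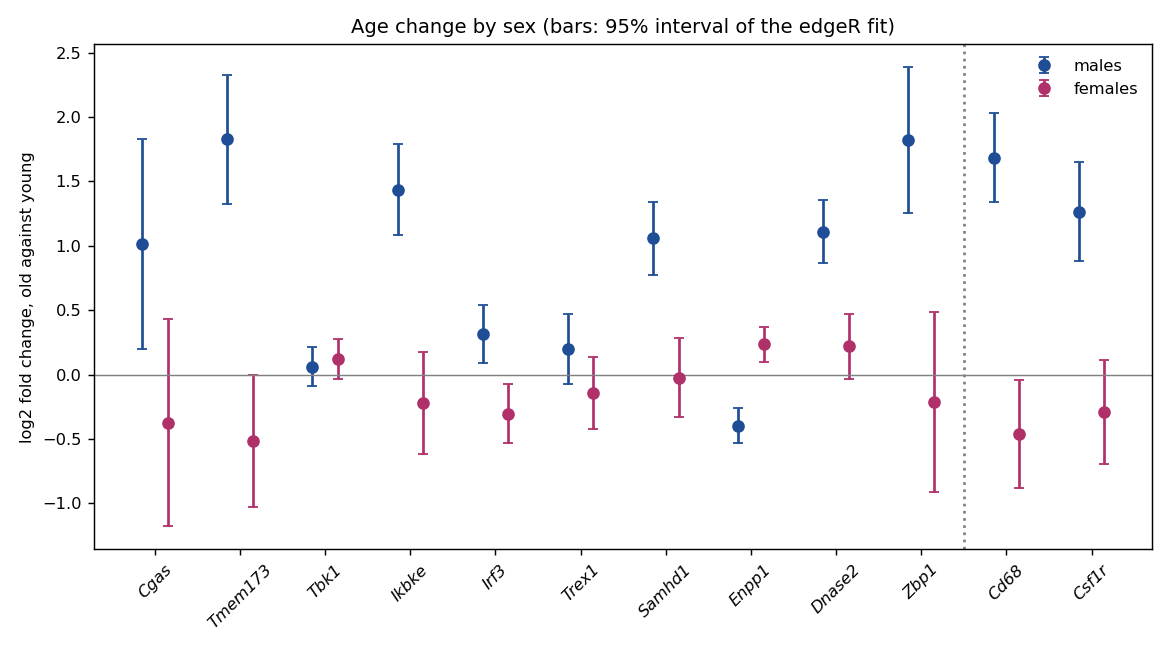
Log2 fold change of old against young (y axis) in males and in females for the 10 genes and, right of the dotted line, Cd68 and Csf1r (x axis), with bars for the 95% interval of the edgeR fit. In males 7 of the 10 genes passed upward and Enpp1 downward, and in females Enpp1 alone passed, at 0.24.

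In females the age comparison gave a call for 1 of the 10 genes. Enpp1 was higher in old females by 0.24 on the log2 scale (SE 0.0637, adjusted p = 0.0390), against 2.54% of all genes higher and 3.17% lower. The groups did not overlap, as for 5.61% of all genes in that direction. The call was lost in 17 of 29 other settings, among them the DS libraries alone (0.18), the prefix as a covariate (0.20) and the inner medulla mean as a covariate (0.14). It was also lost without young female replicates 1, 2 or 4 (0.23, 0.22 and 0.23), young male replicate 3 (0.24), old female replicates 1, 2 or 4 (0.21, 0.23 and 0.23) or old male replicate 2 (0.23). The other 9 had log2 values from -0.52 (Tmem173, 95% interval -1.03 to -0.0066, adjusted p = 0.239) to 0.22 (Dnase2, adjusted p = 0.320). With a library left out, Tmem173 ran from -0.70 to -0.31, Dnase2 from 0.11 to 0.30 and Csf1r from -0.45 to -0.17. Cd68 was at -0.46 (adjusted p = 0.195) and Csf1r at -0.29 (adjusted p = 0.431). Of 7 tested inner medulla genes 2 were lower in old females, and with their mean as a covariate Tmem173 was at 0.05 and of all genes 20 were higher and 8 lower. Young females lay above old females in that mean without overlap (5.12 to 6.10 against 2.71 to 4.87). This fit therefore poorly separates the mean from age.

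The age change was set against sex in 1 contrast, the change in males minus that in females. Of the 10 genes 6 were higher, against 19.4% of all genes, and Enpp1 was lower, against 19.3%. The log2 difference of the age changes was 2.34 for Tmem173 (SE 0.338, adjusted p = 5.92e-05), 2.04 for Zbp1 (adjusted p = 0.00136), 1.66 for Ikbke, 1.08 for Samhd1, 0.89 for Dnase2 and 0.62 for Irf3. In DS libraries alone, with 1 old male and 2 old females, Zbp1 was at 1.59. For Enpp1 it was -0.63 (SE 0.0898, adjusted p = 5.08e-05), with calls in opposite directions in the 2 sexes, and -0.25 with library totals alone. Cgas had a larger value than several of these, at 1.39, but a wide interval of 0.24 to 2.54 and an adjusted p of 0.0539. Cgas passed with library totals alone (1.77), with limma-voom (1.52), without young female replicate 2 (1.54) and without young male replicate 2 (1.97). Trex1 at 0.34 and Tbk1 at -0.06 did not pass, but Trex1 did without old female replicate 2 (0.46), and with library totals alone both did (0.73 and 0.33) and 9 of the 10 genes were higher, when 6661 of all 14390 genes were. Cd68 and Csf1r had differences of 2.15 and 1.56.

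Sex was compared within each age. In young rats Tmem173 was lower in males by 0.89 on the log2 scale (SE 0.251, adjusted p = 0.0121), against 15.7% of all genes, and Enpp1 was higher by 0.21 (adjusted p = 0.0178), against 16% of all genes. Young females were at 2.76 to 6.58 CPM of Tmem173 and young males at 1.99 to 3.33 CPM, so the groups overlapped. Without young female replicate 1 the Tmem173 value was -0.70 (adjusted p = 0.0517). With the inner medulla mean as a covariate it was -0.20 (adjusted p = 0.828). Young females lay above young males in that mean without overlap (5.12 to 6.10 against 2.56 to 4.03). This fit therefore poorly separates the mean from sex. The Enpp1 call was lost without young female replicates 1 or 2, without young male replicate 2, with library totals alone (0.03) and with the inner medulla covariate (0.10). Cgas was at -0.95 and did not pass (adjusted p = 0.0908), though it passed at -1.13 with library totals alone and at -1.54 without young male replicate 2 (adjusted p = 0.00867), and ran from -1.54 to -0.72 with a library left out, and the other 7 genes lay between -0.09 and 0.23.

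In old rats 7 of the 10 genes were higher in males, against 25.5% of all genes, and Enpp1 was lower, against 23.8%. This comparison shares the old male libraries with the age comparison in males. The log2 differences were 2.26 for Zbp1, 1.71 for Ikbke, 1.45 for Tmem173, 1.15 for Samhd1, 0.87 for Dnase2, 0.53 for Irf3, 0.34 for Trex1 and -0.42 for Enpp1. With library totals alone Trex1 was at 0.55 and Enpp1 at -0.22. Trex1 passed narrowly (adjusted p = 0.0354), overlapped through old female replicate 2, and lost its call in 10 of 29 other settings. Those included leaving out old female replicate 1 (0.31), 3 (0.27) or 4 (0.33) or old male replicate 2 (0.28) or 3 (0.36), and the prefix as a covariate (0.30). DS libraries alone, with 1 old male, gave 0.40 for Trex1. Cgas at 0.43 (95% interval -0.31 to 1.18) and Tbk1 at -0.04 did not pass. Tmem173 in DS libraries alone, with 1 old male, was at 1.13.

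The authors' deposited tables keep only genes past a 2-fold change and their own test. The authors' deposited table for old males over old females lists 4 of the 10, with log2 values of 2.26 for Zbp1, 1.69 for Ikbke, 1.44 for Tmem173 and 1.14 for Samhd1. The authors' deposited table for young over old males lists 5, at -1.83 for Tmem173, -1.83 for Zbp1, -1.44 for Ikbke, -1.11 for Dnase2 and -1.06 for Samhd1, the sign being that of young over old. The authors' deposited tables for the other comparisons list 0 of the 10.

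Each gene was then set beside the macrophage score, the mean log2 CPM of Cd68 and Csf1r. Cd68 was at 8.53 to 13.3 CPM in old males and 1.63 to 3.98 CPM in the other groups, and Csf1r at 40.0 to 56.8 CPM against 10.5 to 23.3 CPM. All 17 tested macrophage genes were higher in old than in young males, and 18 macrophage genes summed to 621 to 1073 CPM in old males against 158 to 307 CPM in the other 12 libraries, with none of them at 0 in a whole group. Most other leukocyte genes tested were higher too. T and NK cell genes summed to 70.6 to 100.2 CPM against 11.4 to 24.7 CPM, and B and plasma cell genes to 154 to 338 CPM against 12.7 to 35.2 CPM. Of 5 tested pan-leukocyte genes, 4 were higher in old than in young males and 1 was lower, at -0.70 on the log2 scale. Relative to the macrophage score, 9 of 13 T and NK cell genes and 5 of 6 B and plasma cell genes were still higher. The same held for 4 of the 5 pan-leukocyte genes, with 1 lower, and for 3 of 17 macrophage genes, with 1 lower.

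Scaled to the macrophage score, 0 of the 10 genes were higher in old than in young males, against 3.03% of all genes, and 4 were lower, against 87.1%. At an unadjusted p under 0.05 the count of higher genes was 0 as well, but without young male replicate 1 Zbp1 passed, at 0.74 (adjusted p = 0.0461). The 4 that fell relative to the score were Enpp1 (log2 -1.83), Tbk1 (-1.39), Trex1 (-1.26) and Irf3 (-1.16), near the median of all genes at -1.45. The other 6 did not pass. Tmem173 was at 0.39 (95% interval -0.15 to 0.92, adjusted p = 0.162), Zbp1 at 0.35 (-0.32 to 1.02), Ikbke at -0.03 (-0.47 to 0.41), Dnase2 at -0.35 (-0.72 to 0.025), Samhd1 at -0.40 (-0.84 to 0.044) and Cgas at -0.40 (-1.32 to 0.52). Dnase2 and Samhd1 did pass as lower relative to Cd68 alone (-0.57 and -0.60), to all macrophage genes (-0.45 and -0.49) and to pan-leukocyte genes (-0.68 and -0.74). Dnase2 passed also without old male replicate 1 (-0.41), and Samhd1 with the prefix as a covariate (-0.60). A p that misses the threshold does not show that these genes moved as the macrophage genes did, and the interval of Cgas is the widest of the 6. This scaling divides every gene by the same 2 genes, so it does not depend on the library factors.

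**Figure D3:**
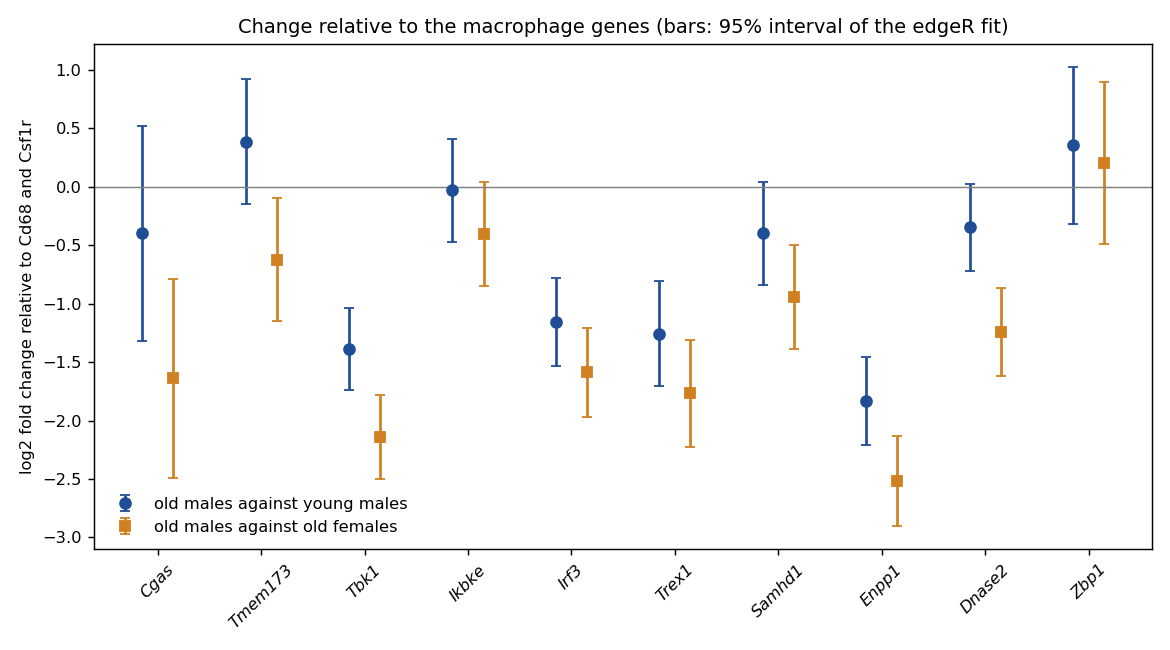
Log2 fold change of each gene relative to the mean of Cd68 and Csf1r (y axis) for old against young males and for old males against old females (x axis: genes), with bars for the 95% interval of the edgeR fit. Tbk1, Irf3, Trex1 and Enpp1 lie below 0 in both comparisons, while Ikbke and Zbp1 reach 0 in both.

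Against old females the scaled values were lower. Of the 10 genes 0 were higher, against 2.22% of all genes, and 8 were lower, against 92.6%, with a median of all genes of -2.09. Ikbke at -0.40 (adjusted p = 0.0787) and Zbp1 at 0.20 (adjusted p = 0.563) did not pass, though Ikbke passed relative to Cd68 alone, at -0.71 (adjusted p = 0.00696), and was at -0.05 in DS libraries. Tmem173 was at -0.62 (adjusted p = 0.0226), and it was -0.95 with Cd68 alone and -1.05 in DS libraries. Its call was lost with Csf1r alone (-0.31), with all macrophage genes (-0.27), with pan-leukocyte genes (-0.51), and without old female replicate 2 (-0.58) or 4 (-0.59) or old male replicate 4 (-0.53). Samhd1 was at -0.94, Dnase2 at -1.24, Irf3 at -1.59, Cgas at -1.64, Trex1 at -1.77, Tbk1 at -2.14 and Enpp1 at -2.52.

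**Figure D4:**
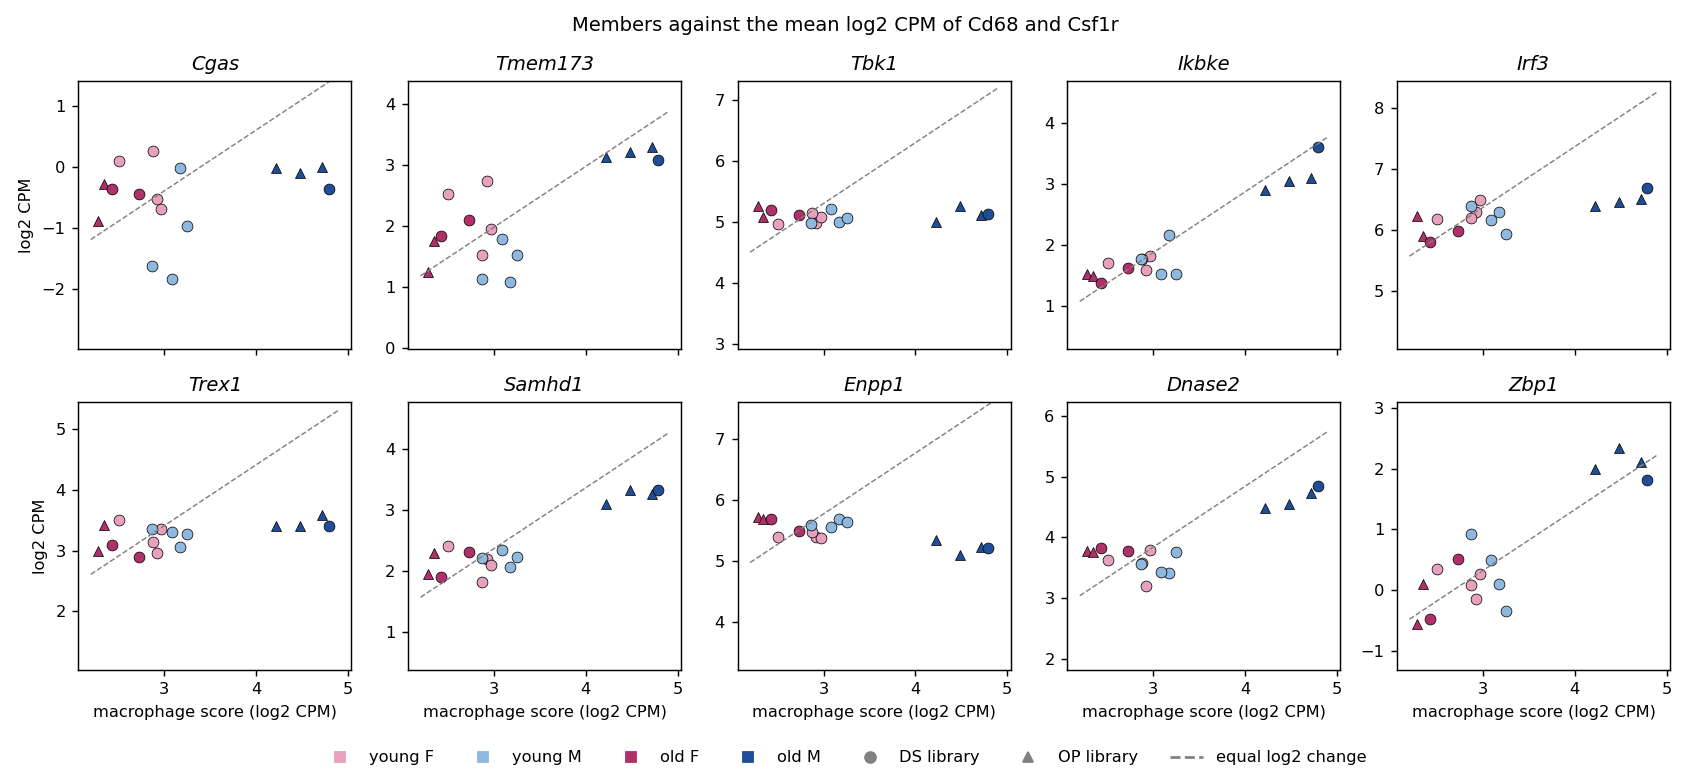
Log2 CPM of each gene (y axis) against the macrophage score (x axis, mean log2 CPM of Cd68 and Csf1r) in each library, coloured by group, with circles for DS and triangles for OP. The dashed line has slope 1 through the mean of the 12 libraries that are not old males. For Zbp1 3 of the 4 old males lie above it, while for every other gene all 4 lie below it, by the least on average for Ikbke.

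Within groups, subtracting the score narrowed the spread of none of the 10 genes. The root mean square deviation of log2 CPM from the group mean was 0.0705 for Enpp1, 0.0835 for Tbk1, 0.158 for Samhd1, 0.197 for Ikbke, 0.322 for Tmem173, 0.348 for Zbp1 and 0.433 for Cgas. After the subtraction, library by library, it was wider for all 10, at 0.219 for Enpp1, 0.210 for Ikbke, 0.350 for Tmem173 and 0.466 for Cgas. The score itself deviated by 0.183, and counting error weighs most on Cgas and Zbp1, the scarcest by counts.

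Closeness to Cd68 and Csf1r was also ranked, as the root mean square difference of centred log2 CPM over 16 libraries. The ranking took named genes with a mean CPM of at least 1 and left out provisional symbols such as those starting with LOC. This describes 4 groups and carries no test. Among 12133 genes, Csf1r was the 100th nearest to Ikbke and Cd68 the 267th, and Cd68 was the 109th nearest to Zbp1 and Csf1r the 145th. For Tmem173 the ranks were 688 for Csf1r and 1847 for Cd68, for Samhd1 1163 and 4683, and for Dnase2 2899 and 8030. A rank depends on how many genes lie near the member, so ranks do not order the members by distance. The distance to Csf1r was 0.303 for Ikbke, 0.390 for Samhd1, 0.450 for Dnase2, 0.482 for Zbp1 and 0.550 for Tmem173. To Cd68 it was 0.365 for Ikbke, 0.463 for Zbp1, 0.521 for Samhd1, 0.603 for Dnase2 and 0.653 for Tmem173. For the other 5, Irf3, Trex1, Tbk1, Enpp1 and Cgas, both ranks lay between 10037 and 11500. The nearest genes to Tmem173 were S100a11, Ppl and Alpk1 (0.269 to 0.290), and the nearest to Cgas were Arhgap20, Pygl and Cited4 (0.378 to 0.384).

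Genes around the pathway were grouped in lists of related genes. Of 14 tested DNA sensors and cGAS cofactors, 3 were higher and 4 lower in old than in young males, near the 25.3% higher and 24.6% lower of all genes, with a median log2 of -0.04. Aim2, the sensor of the DNA inflammasome, rose in males from 0.278 to 1.05 CPM with age (log2 1.87), Ddx41, a helicase described as a DNA sensor, was at 0.46, and Xrcc6, the Ku70 subunit of DNA repair, was at -0.64. Of 16 genes of STING trafficking and turnover, 3 were higher and 8 lower, among them Rhbdf2, an inactive rhomboid protein, at 1.24, and Rnf5 and Tollip, regulators of STING stability, at -0.63 and -0.44. With library totals alone these 2 lists stood at 9 higher and 1 lower, and 8 higher and 3 lower, when 7837 of all 14390 genes were higher and 1332 lower.

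The next lists are read against the same 25.3% higher and 24.6% lower of all genes. Of 14 kinase adaptors and transcription factors, 9 were higher and 3 lower. Relb, an NF-kappaB subunit, was at 1.23 and Stat6, which STING can activate, at 0.70, while Chuk, the kinase IKK-alpha, was at -0.68. Of 10 other nucleases and editing enzymes, 6 were higher and 2 lower: Pld4, an exonuclease of endosomes, was at 1.73, Adar, an RNA editing enzyme, at 0.61, and Dnase1, the secreted DNase, at -1.14. Of 12 genes for cGAMP transport and other hydrolases, 4 were higher and 6 lower. Gja1, the gap junction protein connexin 43, rose in males from 8.66 to 77.0 CPM with age (log2 3.15). Lrrc8c, a volume-regulated channel subunit, was at 1.34, and Enpp3, an ENPP1 relative, at -1.49. Relative to the macrophage score Gja1 was still higher, at 1.62 (adjusted p = 2.16e-08).

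Of 7 RNA sensing genes 5 were higher and 1 lower in old males, against the same 25.3% and 24.6%, led by Tlr7, the endosomal receptor for single-stranded RNA, at 1.69. Of 5 partners of ZBP1 in cell death 4 were higher and 0 lower, with Ripk3, the necroptosis kinase, at 1.58, Casp8 at 0.98 and Mlkl, the necroptosis effector, at 0.93. Of 30 interferon target genes 27 were higher and 0 lower, with a median log2 of 1.01. Lgals3bp, a secreted glycoprotein, rose in males from 55.5 to 179 CPM with age (log2 1.69). Irf1, a transcription factor of the same family as Irf3, was at 2.05 and Tap1, a peptide transporter for antigen presentation, at 1.49. Relative to the macrophage score 1 of these 30 was higher, Irf1, at 0.57 (adjusted p = 0.00246), against 3.03% of all genes, and 13 were lower, against 87.1%.

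**Figure D5:**
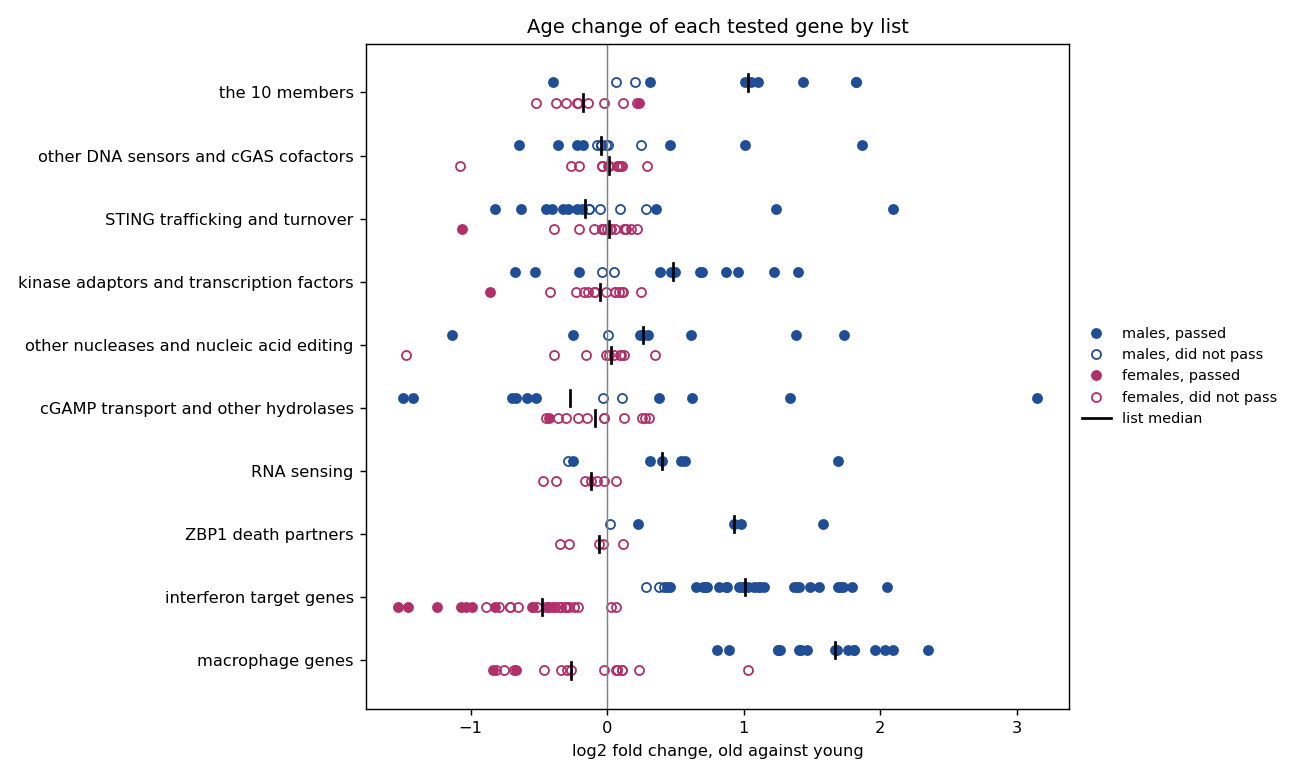
Log2 fold change of old against young (x axis) for each tested gene of the lists (y axis) in males and females, with filled circles for genes that passed at an adjusted p under 0.05 and a bar at the list's median. Interferon target genes have medians of 1.01 in males and -0.48 in females.

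In females 11 of the 30 interferon target genes were lower with age, against 3.17% of all genes, and 0 were higher, against 2.54%, with a median of -0.48 against 0.00023 for all genes. Gbp2, a guanylate-binding protein, was at -0.99 (adjusted p = 0.00735). Irf7, the interferon-amplifying relative of Irf3, was lower too at -0.86 (adjusted p = 0.0253), and so was Usp18, which removes ISG15, at -1.06 (adjusted p = 0.0264). Of 17 macrophage genes 2 were lower in old females, Fcer1g at -0.83 and Tyrobp at -0.66, and relative to the macrophage score 2 of the 30 interferon target genes were lower, against 0.89% of all genes. In the age by sex contrast all 30 interferon target genes were higher, against 19.4% of all genes. Whether the inner medulla or leukocyte content has a part in these differences was not tested.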

How the data were processed

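Per the labels' protocols, RNeasy Micro columns gave the RNA and TruSeq Stranded mRNA kits the libraries. The submitters' processing notes name the build Rnor_6.0 and edgeR 3.8.6 without their roles, while aligner, counter and strand setting are, beyond that, not given in the sources used here. The authors deposited raw counts for 32623 genes, used as deposited, and RPKM values, which equal each count over the library total and the listed length plus 1. They also deposited log2 fold changes with false discovery rates (adjusted p-values) for genes past their thresholds.

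Genes passing filterByExpr (14390, holding 99.9% of counts) were fitted with edgeR 4.0.16 in R 4.3.3: TMM factors, 1 mean for each group, all 16 libraries, quasi-likelihood F tests, two-sided, Benjamini-Hochberg adjustment over all tested genes, threshold 0.05. The same model was fitted with the macrophage score added to each library's offset, which expresses every gene relative to Cd68 and Csf1r. The score itself is measured with error. As an offset, that error is shared by all genes and adds to the spread between libraries from which the intervals are made. In old against young males the SE went from 0.0633 to 0.185 for Enpp1 and from 0.236 to 0.263 for Tmem173. CPM are TMM-scaled, and log2 CPM use a prior count of 2. Libraries of a group differed from each other beyond sampling noise (chi-square per degree of freedom 6.28 to 49.5), so none is a copy. Both tests were also run on simulated counts. Those for the score held no error in it, so they do not speak of that error.

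The members and the gene lists were chosen with earlier results of these data known. Named genes are all members, and in each list up to 3 with the smallest p in old against young males, with up to 2 that passed in females and in the age by sex contrast; a gene that this rule names is not reported here. Promoters are from RefSeq (GRCr8). Alternatives were RLE factors, library totals alone, only the groups compared, no filter, a CPM filter of 1 in 4 libraries, a threshold of 0.01, DESeq2 1.42.0, limma-voom (limma 3.58.1), the replicate number as a block, the prefix, inner medulla or macrophage mean as a covariate, DS libraries alone, other macrophage scores, and each library left out.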

Additional observations from a re-analysis of the deposited data

Results flagged for a closer look

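Trex1 in old male replicate 2 stood at 11.9 CPM while the other 3 old males lay between 10.42 and 10.46 CPM. It was the only library of 40 groups of 4 (10 genes in 4 groups) far from the rest of its group. Chance flags about 1 group in 20 at the cutoff used, so 1 in 40 groups is no more than chance gives. That library is also the deepest.

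The age change differed between males and females for 7 genes in the test of the difference itself, 6 higher and 1 lower. Of all genes 19.4% were higher and 19.3% lower in the same test. On the log2 scale the change in males minus that in females was 2.34 for Tmem173, 2.04 for Zbp1, 1.66 for Ikbke, 1.08 for Samhd1, 0.89 for Dnase2, 0.62 for Irf3 and -0.63 for Enpp1. Cd68 and Csf1r differed in the same contrast, by 2.15 and 1.56, and leukocyte content and expression per cell cannot be told apart in this tissue RNA.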

How the results depend on the processing

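Of 796 gene values recomputed under settings other than leaving out a library, 715 kept their direction and side of the threshold, 56 lost a call, 14 gained one and 11 changed sign. These values include Cd68 and Csf1r, and for young males against young females only Cgas, Tmem173 and Enpp1. A value that did not pass and stayed so counts as kept, so 715 is not a count of calls kept. With each library left out, members called ranged from 6 to 8 in old against young males, 0 to 1 in old against young females, 0 to 2 in young males against young females, 7 to 8 in old males against old females, 7 to 8 for age by sex, and, relative to the macrophage score, 4 to 5 and 7 to 8 against young males and old females.

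With the macrophage score as a covariate, 0 members were called in old against young males, in old males against old females, and in age by sex. Old males do not overlap the other groups in that score, and of all genes only 8 higher and 2 lower passed in old against young males. Members called in old against young females were 0 at a threshold of 0.01, with library totals alone, without a filter, in only the groups compared, with the prefix, inner medulla or macrophage covariate, and in DS libraries alone. In young males against young females they were 0 at 0.01 and with the inner medulla covariate. Young females do not overlap the other groups in the inner medulla mean.

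The main fit did not pair libraries by replicate number. Deviations of same-numbered libraries correlated from -0.26 to 0.47, above 0.1 in 8 of 24 pairs, and 6 of 16 libraries were closest to their own number. No range was made from differently numbered pairs, so whether the numbers pair some libraries was not tested. With the replicate block, members called in old against young females were 0 and elsewhere the counts were within 1.5 times.

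Some values changed sign. Tbk1 was at -0.067 in old against young males with the macrophage covariate, and with library totals alone at 0.17 against old females and 0.33 in the age by sex contrast. In old against young females the inner medulla covariate gave 0.052 for Tmem173, 0.049 for Samhd1 and 0.24 for Zbp1, and leaving out a library moved Samhd1 from -0.12 to 0.081. Relative to the macrophage score in old against young males, Ikbke was at 0.18 with Csf1r alone and 0.18 in DS libraries, and from -0.16 to 0.10 with a library left out. Cgas ran from -0.62 to 0.18 with a library left out, and Zbp1 was at -0.19 in DS libraries. Against old females Zbp1 was at -0.11 with Cd68 alone and -0.34 in DS libraries. The cause was not tested. The 2 to 36 counts of Cgas limit what can be said of it.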
